A study of Mus musculus with 13 samples.

Results

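The genes described here are 7 genes of Schwann cells and myelin, Mbp, S100b, Sox10, Erbb3, Pmp22, Prx and Ncam1, taken by symbol from the 18748 genes of the deposited table, which lists each of the 7. Messenger RNA was sequenced in bulk from the cartilage of the mandibular condyle, the jaw side of the temporomandibular joint, of aged mice (18 months old, 6 libraries) and young mice (2 months old, 7 libraries). The labels name no strain, sex, genotype or treatment. They number the libraries without saying that each came from a separate mouse, so the p-values measure the spread between libraries.

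Schwann cells are the glia of peripheral nerve. The transcription factor SOX10 maintains them, the receptor ERBB3 binds axonal neuregulin together with its partner ERBB2, and those that wrap large axons build compact myelin from proteins such as PMP22 and MBP. Articular cartilage itself holds few nerves, while the bone, muscle attachments and joint capsule beside it are innervated. Several of the 7 genes have other sources in the joint: S100B is made by chondrocytes, NCAM1 by muscle, PMP22 by fibroblasts and endothelium, and the Mbp gene also gives the Golli transcripts of blood-forming and immune cells. In bulk tissue, fewer cells of a type and less RNA per cell cannot be told apart.

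The bases before the start site of S100b and Prx are shown because one gene was called higher and the other was not called, and each has a single start in the RefSeq promoter table. Of the 7 genes, the promoters of 3 were searched, the other being Pmp22 with 4 starts. Both sequences run 5′ to 3′ on the plus strand of GRCm38.p6, over the 250 bases before the start: S100b at chr10:76253586-76253835 and Prx at chr7:27499074-27499323. Capitals mark a match to ACAANG, a core that SOX factors bind, searched on both strands.
S100b: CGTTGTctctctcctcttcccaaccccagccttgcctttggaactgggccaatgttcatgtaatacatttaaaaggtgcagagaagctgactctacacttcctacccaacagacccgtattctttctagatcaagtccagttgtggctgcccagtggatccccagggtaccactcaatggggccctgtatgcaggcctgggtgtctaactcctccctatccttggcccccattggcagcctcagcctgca
Prx: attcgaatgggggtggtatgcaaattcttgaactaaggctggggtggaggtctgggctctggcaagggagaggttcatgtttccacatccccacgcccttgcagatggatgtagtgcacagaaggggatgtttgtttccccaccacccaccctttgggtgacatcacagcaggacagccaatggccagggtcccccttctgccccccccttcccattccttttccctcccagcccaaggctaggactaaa
The S100b stretch held 1 match, on the minus strand at position −250, and the Prx stretch and the 4 of Pmp22 held none. Of all 32851 promoters in the table, 36.3% held such a match over the same length, so the match describes the letters alone. None of the 6 stretches held GCGNGGGCG, a motif of EGR factors, which 4.70% of all promoters held. The absence says only that these letters are not in these windows.

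Total counts ran from 16356839 to 17876681 in the aged libraries and from 17531694 to 18203443 in the young ones. To set beside the label, 14 chondrocyte genes were summed in FPKM (counts per gene length and library depth, as the authors computed it). Their sum ran from 3997 to 8360 FPKM (median 5068) in aged and from 6492 to 9354 FPKM (median 7349) in young libraries. Median sums of fibroblast, skeletal muscle and neutrophil genes were 14948, 10054 and 9573 FPKM in aged and 37604, 1359 and 3386 FPKM in young libraries. The lists hold different genes, so the sums give no share of a tissue and do not settle the label. Of 14067 genes tested with edgeR's quasi-likelihood test, 6504 passed an adjusted p of 0.05 and are called here, which is 46.2%, with 3471 higher (24.7%) and 3033 lower (21.6%) in aged libraries. Libraries were scaled by TMM, which sets most genes equal between libraries, and a CPM value is the count relative to the scaled library total. With library sizes alone in place of TMM, 7034 were higher and 1253 lower. Under that scaling the log2 fold change of all genes had a median of 0.24, against 0.014 under TMM. One library stood apart in neural genes. Aged replicate 1 held 738 counts of Snap25, a synaptic protein of neurons, against 0 to 2 in the other 12 libraries, and values without it are given beside some of the named genes it moved.

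**Figure D1:**
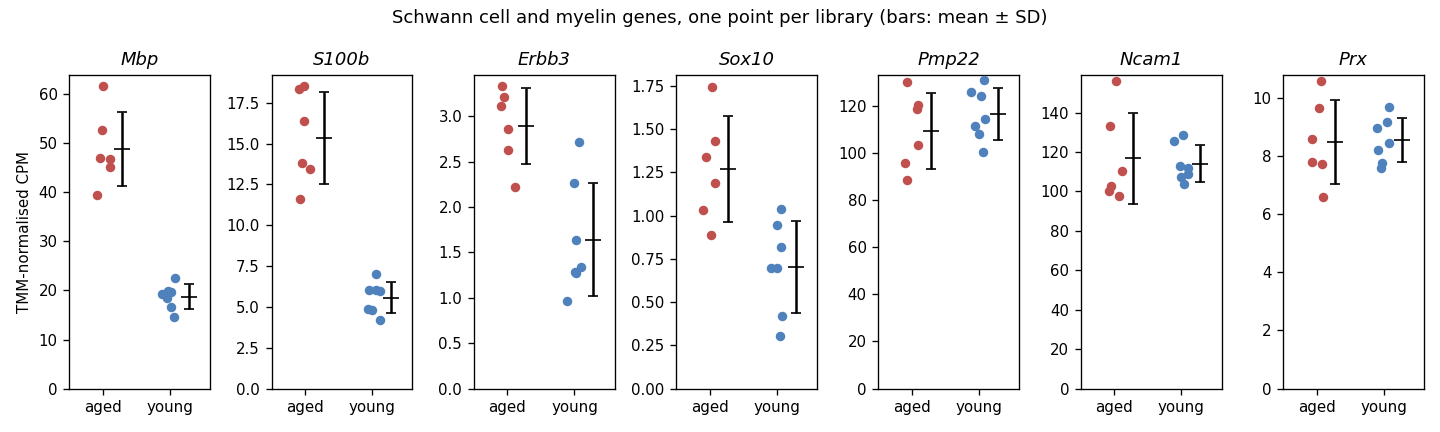
TMM-normalised CPM of the 7 genes on linear axes from 0, one point per library, with 6 aged libraries in red and 7 young libraries in blue; the bars beside the points are mean ± SD. The aged points of Mbp and S100b lie above every young point, those of Erbb3 and Sox10 overlap the young range, and those of Pmp22, Ncam1 and Prx spread across it.

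Of the 7 genes, 4 were higher in the aged libraries (Mbp, S100b, Erbb3 and Sox10), none was lower and 3 were not called (Pmp22, Prx and Ncam1). Among all genes tested, 24.7% were called higher. The 4 genes that rose include the factor and the receptor of the lineage and one protein of compact myelin. The 3 that were not called include another protein of compact myelin and the scaffold of the myelin sheath's outer membrane. The 4 calls held without aged replicate 1, where 23.6% of all genes were called higher, and when each of the other libraries was left out in turn.

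Sox10 (gene ID 20665) encodes the transcription factor that neural crest cells and the glia and pigment cells derived from them depend on. It was near the limit of detection, with 16 to 32 counts in an aged library and 5 to 17 in a young one. The aged libraries had 0.887 CPM at the lowest, 1.26 at the median and 1.74 at the highest, and the young libraries 0.306, 0.700 and 1.04 CPM. Aged replicates 1 and 4, at 1.03 and 0.887 CPM, lay within the young range, and the other 4 aged libraries lay above it. The means were 1.27 ± 0.305 CPM (SD, n = 6) in aged and 0.704 ± 0.266 CPM (SD, n = 7) in young libraries. The log2 fold change was 0.85 ± 0.26 (SE, 95% interval 0.28 to 1.41, edgeR adjusted p = 0.0170), which is 1.80-fold. Over the libraries this rests on 142 counts in aged and 82 in young, and the exact Poisson interval of a single library with 16 counts runs from 9.15 to 26.0, for counting error only. With each library's skeletal muscle score as a covariate the log2 fold change was 0.67 and was not called (adjusted p = 0.258), and with a blood score, from erythroid and neutrophil genes, it was 1.66, again not called (adjusted p = 0.0614). The blood score did not overlap between the ages, so fits with that covariate cannot separate the score from age.

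Erbb3 (gene ID 13867) encodes the neuregulin receptor of Schwann cells. It had 2.22, 2.99 and 3.34 CPM at the lowest, median and highest of the aged libraries, and 0.963, 1.34 and 2.72 CPM in the young libraries. Young replicate 2, at 2.72 CPM, stood above aged replicates 4 and 5, and young replicate 7, at 2.26 CPM, above aged replicate 4. The means were 2.89 ± 0.420 CPM (SD, n = 6) in aged and 1.64 ± 0.626 CPM (SD, n = 7) in young libraries. The log2 fold change was 0.82 ± 0.22 (SE, 95% interval 0.34 to 1.295, edgeR adjusted p = 0.00795), which is 1.76-fold. It was 0.64 with the muscle score as a covariate, where it was not called (adjusted p = 0.181), and 1.70 with the blood score, where it was (adjusted p = 0.0227).

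S100b (gene ID 20203) encodes a calcium-binding protein used as a marker of Schwann cells and made by chondrocytes too. The aged libraries had 11.6, 15.1 and 18.5 CPM at the lowest, median and highest, and the young libraries 4.21, 6.00 and 7.02 CPM. The lowest aged library stood above the highest young one. Among all genes tested, the groups did not overlap in 19.2%, and aged was the higher group in 8.28%. The means were 15.3 ± 2.83 CPM (SD, n = 6) in aged and 5.57 ± 0.964 CPM (SD, n = 7) in young libraries, and the log2 fold change was 1.46 ± 0.14 (SE, 95% interval 1.16 to 1.76, edgeR adjusted p = 2.43e-06), or 2.75-fold. It was 1.22 with the muscle score as a covariate (adjusted p = 0.000807) and 2.11 with the blood score (adjusted p = 0.000421). Most other chondrocyte genes went the other way or were not called: of the 14 tested, 4 were higher and 8 lower, with a median log2 fold change of −1.28. Which cells gave the S100b counts was not tested.

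Mbp (gene ID 17196) encodes myelin basic protein, which holds the cytoplasmic faces of the myelin membrane together. It had 39.5, 47.0 and 61.7 CPM at the lowest, median and highest of the aged libraries, and 14.7, 19.2 and 22.6 CPM in the young libraries. The groups did not overlap. The means were 48.8 ± 7.57 CPM (SD, n = 6) in aged and 18.7 ± 2.53 CPM (SD, n = 7) in young libraries, and the log2 fold change was 1.38 ± 0.11 (SE, 95% interval 1.15 to 1.62, edgeR adjusted p = 5.48e-07), or 2.61-fold. The highest library was aged replicate 1, and without it the log2 fold change was 1.299 (adjusted p = 7.60e-07). It was 1.57 with the muscle score as a covariate (adjusted p = 2.07e-05) and 0.99 with the blood score (adjusted p = 0.0121).

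Mbp also differed from the other genes in how its counts related to its length-corrected level. One FPKM of Mbp corresponded to 55.9 to 71.7 counts in the aged libraries and 49.1 to 69.6 in the young ones, once scaled for the library's own factor. The coefficient of variation of that quotient was 9.94%, against a median of 0.895% over 11560 genes, of which 98.2% varied less. S100b, Pmp22, Prx and Ncam1 varied by 0.705% to 1.50%. The transcript length that the deposited FPKM divides by thus varied between libraries for Mbp, with the ages overlapping. Which Mbp transcripts the reads came from, those of myelin or the Golli ones, was not tested.

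Pmp22 (gene ID 18858) encodes a small membrane protein of compact myelin whose dose is critical in human neuropathies. It was the most abundant of the 7. The aged libraries had 88.4, 111 and 130 CPM at the lowest, median and highest, and the young libraries 100, 115 and 131 CPM. The ranges overlapped, with 2 aged libraries below every young one. The log2 fold change was −0.091 ± 0.093 (SE, 95% interval −0.29 to 0.11, edgeR adjusted p = 0.446). It was 0.14 with library sizes alone, where the median of all genes was 0.24.

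Prx (gene ID 19153) encodes periaxin, the scaffold that ties the outer myelin membrane to dystroglycan. The aged libraries had 6.59, 8.20 and 10.6 CPM at the lowest, median and highest, and the young libraries 7.59, 8.47 and 9.71 CPM. The aged range enclosed the young one. Its log2 fold change was −0.010 ± 0.11 (SE, 95% interval −0.25 to 0.23, edgeR adjusted p = 0.950), and 0.22 with library sizes alone (adjusted p = 0.0881).

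Ncam1 (gene ID 17967) encodes the neural cell adhesion molecule of non-myelinating Schwann cells, muscle and mesenchyme. It had 97.8, 107 and 156 CPM at the lowest, median and highest of the aged libraries, and 104, 112 and 129 CPM in the young libraries. Aged replicates 3 and 2, at 156 and 133 CPM, were above every young library, and 3 aged libraries were below every young one. Its log2 fold change was 0.033 ± 0.11 (SE, 95% interval −0.19 to 0.26, edgeR adjusted p = 0.821). It was 0.26 with library sizes alone, where it passed the threshold (adjusted p = 0.0482).

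Levels of different genes can be compared only per length, on the deposited FPKM scale. There the order was the same at both ages: Pmp22 at 76.5 FPKM in aged and 71.4 in young libraries, then Ncam1 at 21.4 and 17.7 FPKM, Mbp at 14.8 and 5.10 FPKM, S100b at 12.2 and 3.89 FPKM, Prx at 2.08 and 1.78 FPKM, Sox10 at 0.575 and 0.274 FPKM, and Erbb3 at 0.555 and 0.267 FPKM. Of the neighbours in that order, Sox10 was above Erbb3 in 3 of 6 aged and 5 of 7 young libraries, and Mbp above S100b in 4 of 6 aged and 7 of 7 young libraries. Ncam1 was above Mbp in 5 of 6 aged and 7 of 7 young libraries. The other neighbours kept their order in all 13 libraries. Mbp stood above 63.1% of the genes tested in aged and above 37.3% in young libraries. Sox10 stood above 4.83% in aged and 2.90% in young libraries, and Pmp22 above 93.6% in aged and 94.2% in young ones.

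Because both lie in the same library, the ratio of a pair of genes does not depend on the scaling between libraries. Of the 21 ratios of FPKM between the 7 genes, 13 differed between ages by two-sided exact permutation tests over all 1716 assignments of age to the libraries (Benjamini-Hochberg over the 21 pairs, threshold 0.05). The ratios of Mbp, S100b, Sox10 and Erbb3 to Pmp22, Prx and Ncam1, 12 in all, each differed, with adjusted p from 0.00204 to 0.0194. These 2 groups follow the edgeR calls on the same libraries, so the 12 differences largely restate those calls and are no separate support. The log2 ratio of Mbp to Pmp22 was −2.40 ± 0.464 (SD, n = 6) in aged and −3.82 ± 0.317 (SD, n = 7) in young libraries, a difference of 1.42 (exact permutation p = 0.000583, the smallest these libraries allow; adjusted p = 0.00204). That of S100b to Pmp22 was −2.65 ± 0.283 in aged and −4.21 ± 0.342 in young libraries, a difference of 1.56 (exact permutation, adjusted p = 0.00204). Sox10 to Pmp22 differed by 1.03 (exact permutation, adjusted p = 0.00524) and Erbb3 to Ncam1 by 0.85 (exact permutation, adjusted p = 0.0156). The transcripts of MBP and PMP22, both structural proteins of compact myelin, thus stood in different proportions at the 2 ages.

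Within the 4 genes that rose, the differences between ages were smaller, at most 0.54 in size. Sox10 to Erbb3 differed by 0.018 between ages (exact permutation, adjusted p = 0.937), with SDs of 0.261 in aged and 0.416 in young libraries. Mbp to S100b differed by −0.13 (adjusted p = 0.613), Mbp to Sox10 by 0.39 (adjusted p = 0.227) and Mbp to Erbb3 by 0.41 (adjusted p = 0.111), all by exact permutation. S100b to Erbb3 differed by 0.54 (exact permutation, adjusted p = 0.0386), and this ratio missed the threshold in 8 of 13 runs with 1 library left out, with adjusted p up to 0.0928. With 0.1 added to each FPKM value, the ratios of Mbp to Sox10, Mbp to Erbb3 and Sox10 to S100b passed too, at 0.63, 0.64 and −0.76 (exact permutation, adjusted p = 0.0160, 0.00918 and 0.0188). Within Pmp22, Prx and Ncam1 no ratio differed, and the nearest to the threshold was Pmp22 to Ncam1 at −0.16 (exact permutation, adjusted p = 0.0699). That ratio passed in 1 of 13 runs with 1 library left out, without aged replicate 5 (−0.21, exact permutation, adjusted p = 0.0145), and Pmp22 to Prx passed without aged replicate 2 (−0.20, exact permutation, adjusted p = 0.0436).

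**Figure D2:**
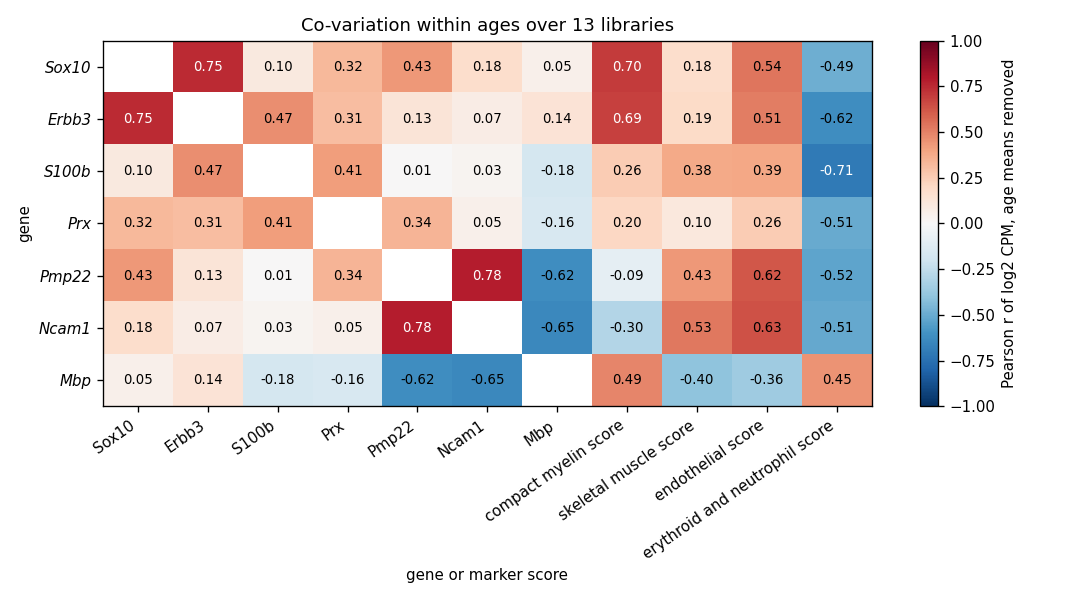
Pearson r of log2 CPM over 13 libraries after each age's mean was subtracted, for the 7 genes in rows against the same genes and 4 marker scores in columns; red is positive, blue negative. Sox10 and Erbb3 (0.75) and Pmp22 and Ncam1 (0.78) varied together, while Mbp ran against Pmp22 (−0.62) and Ncam1 (−0.65).

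The 7 genes did not vary as one block between libraries of the same age. After each age's mean was subtracted, Sox10 and Erbb3 had a Pearson r of 0.75 over the 13 libraries, and 0.67 in the aged and 0.77 in the young libraries alone. Pmp22 and Ncam1 had an r of 0.78, with 0.82 in aged and 0.70 in young libraries. Mbp had an r of −0.62 with Pmp22, −0.65 with Ncam1 and 0.05 with Sox10, and without aged replicate 1 these were −0.45, −0.62 and 0.19. S100b had an r of 0.47 with Erbb3, which was −0.40 in the aged and 0.86 in the young libraries. The points share the depth and tissue makeup of their libraries, so these values describe the libraries and carry no test.

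The mean log2 CPM of the other compact myelin genes had an r of 0.70 with Sox10, 0.69 with Erbb3 and 0.49 with Mbp. It was 0.26 with S100b, 0.20 with Prx, −0.09 with Pmp22 and −0.30 with Ncam1. For S100b the r was −0.78 in the aged and 0.73 in the young libraries, and for Erbb3 0.29 and 0.75. Blood and marrow genes ran against most of the 7: with the score of erythroid and neutrophil genes, r was −0.71 for S100b, −0.62 for Erbb3, −0.49 for Sox10 and 0.45 for Mbp. In the 6 aged libraries alone, Mbp had an r of 0.87 with that score and −0.86 with the skeletal muscle score. Without aged replicate 1, the highest library for Mbp, these were 0.95 and −0.74. In the 7 young libraries both were near zero, at 0.02 and −0.01. Pmp22 had an r of 0.62 with the endothelial score, which was 0.97 in the aged and −0.31 in the young libraries.

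Beyond the named lists, the 3 genes whose pattern within ages was most like each of the 7 were sought by the same r over 13 libraries. The search took genes with a mean of at least 1 FPKM. It left out predicted genes and those of ribosomal proteins, histones, olfactory receptors and immune receptors. Each r is the highest of very many over few libraries and carries no test. For Mbp these were Tmprss3 (r = 0.93), Lgals9 (0.91) and Fam122b (0.91). For Sox10 they were Mcat (0.87), Adamts15 (0.81) and Hebp2 (0.80), and for Erbb3 Parm1 (0.84), Zfp3 (0.83) and Rab5b (0.83). S100b was followed by Unc5b (0.90), Glg1 (0.89) and Spata13 (0.89). Pmp22 was followed by Wdsub1 (0.90), Parp3 (0.90) and Lnx1 (0.89), Ncam1 by Dmwd (0.94), Dvl1 (0.93) and Acad8 (0.93), and Prx by Ttc23 (0.94), Exoc6b (0.86) and Dnajc30 (0.86). None of the 21 belongs to the Schwann cell lists. The floor of 1 FPKM left out genes of those lists such as Ngfr and Dhh, as well as Sox10 and Erbb3, so they could not appear. Unc5b, the closest to S100b, had a log2 fold change between ages of −0.76 (edgeR adjusted p = 2.51e-05), the reverse of S100b.

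**Figure D3:**
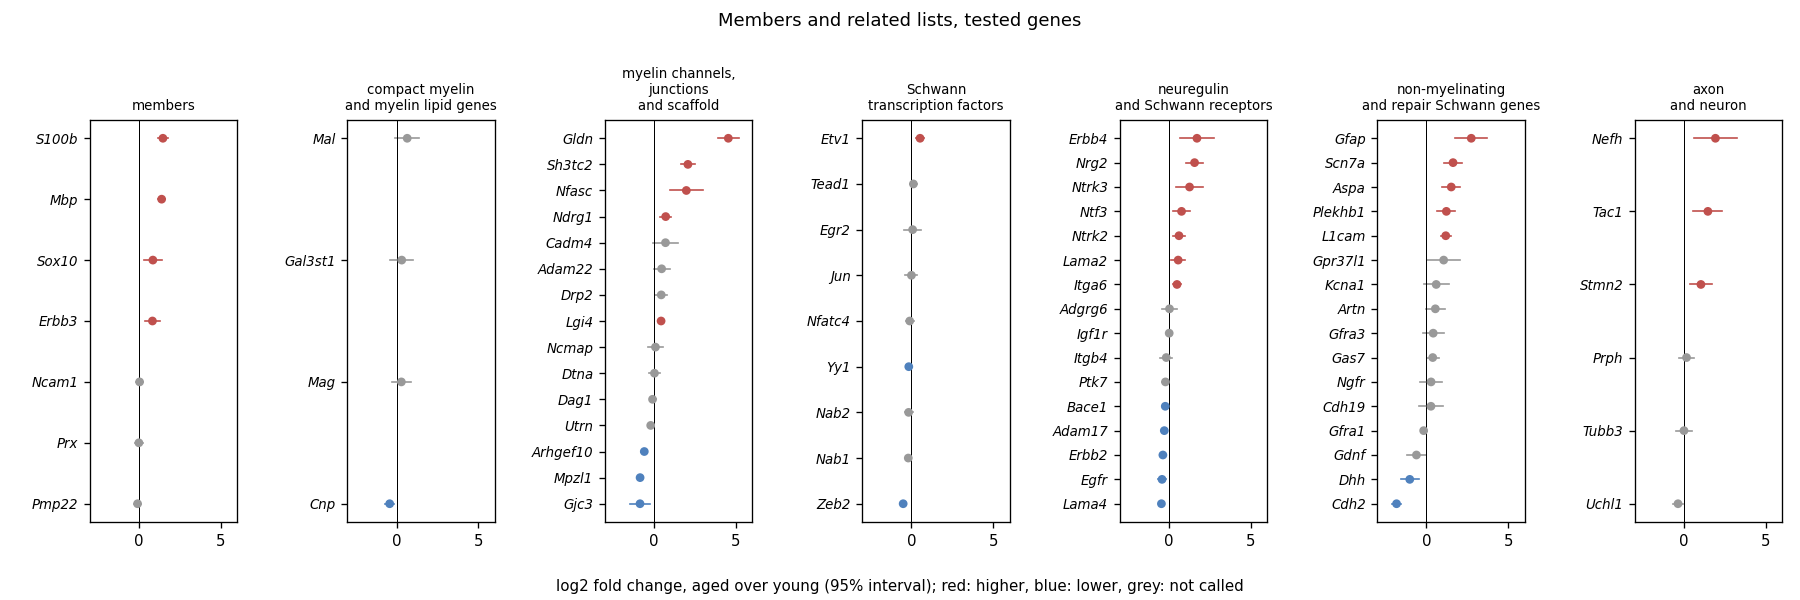
Log2 fold change, aged over young, with its 95% interval on a shared linear axis, for the 7 genes and the tested members of 6 related lists that are reported here; red is called higher, blue called lower and grey not called (edgeR, adjusted p 0.05). Each of the lists of myelin junctions, neuregulin signalling and non-myelinating cells holds genes on both sides of 0, led by Gldn at 4.55 and Cdh2 at −1.83.

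Genes known from the same cells went in both directions, as all genes tested did. Over 6 lists of Schwann cell, neuregulin and axon genes, which hold 98 genes beside the 7, 68 were tested, of which 22 were higher and 13 lower in the aged libraries, against 24.7% and 21.6% of all genes. Their median log2 fold change was 0.28, against 0.014 for all genes. The lists were chosen with earlier results of these data known. Counts for each list below are to be read beside those shares of all genes. With library sizes alone, 31 were called higher and 6 lower in these lists, where 50% of all genes were higher and 8.91% lower. With the blood score as a covariate, 8 were called higher and 3 lower, where 14.9% of all genes were called.

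Of 11 compact myelin and myelin lipid genes, 6 were tested, 1 was higher, 1 lower and 4 not called. Cnp, an enzyme of non-compact myelin, fell by 0.42 ± 0.13 (SE, edgeR adjusted p = 0.0199), and was not called with library sizes alone (−0.18, adjusted p = 0.294). Nor was it called with the muscle score (−0.062, edgeR adjusted p = 0.814) or the blood score (−0.73, adjusted p = 0.113). Mag, a receptor on the myelin face toward the axon, stood at 0.30 ± 0.27 on the log2 scale (SE, edgeR adjusted p = 0.387), and at 0.0038 without aged replicate 1, its highest library (adjusted p = 0.991). Pllp, Pmp2, Ugt8a, Fa2h and Cldn11 had too few counts to be tested.

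Of 17 genes of myelin channels, junctions and scaffolds, 15 were tested, 5 were higher, 3 lower and 7 not called. Gldn encodes gliomedin, which gathers sodium channels at nodes of Ranvier. It had 1.99 ± 0.681 FPKM (SD, n = 6) in aged and 0.0729 ± 0.0269 FPKM (SD, n = 7) in young libraries, and rose by 4.55 ± 0.30 on the log2 scale (SE, edgeR adjusted p = 1.24e-07). Sh3tc2, an endosomal protein of Schwann cells, rose by 2.07 ± 0.21 (SE, edgeR adjusted p = 4.18e-06), and Nfasc, an adhesion molecule of nodes and paranodes, by 1.98 ± 0.47 (SE, edgeR adjusted p = 0.00380). Lgi4, a secreted protein that Schwann cells need for myelination, rose by 0.43 ± 0.09 (SE, edgeR adjusted p = 0.00140). Mpzl1, a membrane glycoprotein found in many tissues, fell by 0.85 ± 0.07 (SE, edgeR adjusted p = 9.63e-07). Gjc3, a connexin of myelinating glia, fell by 0.86 ± 0.29 (SE, edgeR adjusted p = 0.0245), a call lost without young replicate 2 and with library sizes alone (−0.62, adjusted p = 0.0745). Drp2, the dystrophin relative that periaxin binds, missed the threshold at 0.44 (adjusted p = 0.0524). With the blood score as a covariate, Gldn was still called (5.41, adjusted p = 0.000307), while Sh3tc2 (0.93, adjusted p = 0.0730) and Nfasc (0.67, adjusted p = 0.730) were not. The muscle score instead left Gldn at 3.94, Sh3tc2 at 2.44 and Nfasc at 3.13, all called (edgeR adjusted p at most 0.000937). Mpzl1 was called with it too (−0.93, edgeR adjusted p = 9.38e-05). Lgi4 (0.26, adjusted p = 0.171) and Gjc3 (−0.77, adjusted p = 0.201) were not.

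The partners of Sox10 and Erbb3, like all genes tested, were called in both directions or not called. Of 15 Schwann cell transcription factors, 9 were tested, 1 was higher, 2 lower and 6 not called. Egr2, the factor that drives the myelin programme, stood at 0.07 ± 0.25 on the log2 scale (SE, edgeR adjusted p = 0.838). Etv1, a neuregulin-responsive ETS factor, rose by 0.53 ± 0.11 (SE, edgeR adjusted p = 0.00115), and Zeb2, a repressor needed for differentiation, fell by 0.51 ± 0.06 (SE, edgeR adjusted p = 2.65e-05). Yy1, a ubiquitous regulator, fell by 0.16 ± 0.05 (SE, edgeR adjusted p = 0.0201), and stood at 0.066 with library sizes alone. With the muscle score as a covariate, Zeb2 was still called (−0.40, edgeR adjusted p = 0.00579). Etv1 (0.42, adjusted p = 0.0821) and Yy1 (−0.051, adjusted p = 0.674) were not. With the blood score, Etv1 (1.01, edgeR adjusted p = 0.00506) and Zeb2 (−0.51, adjusted p = 0.0317) were called. Yy1 was not (−0.32, adjusted p = 0.0671). Pou3f1, Pou3f2, Sox2, Foxd3, Tfap2a and Pax3 had too few counts to be tested.

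Of 20 genes of neuregulin signalling and Schwann cell receptors, 16 were tested, 7 were higher, 5 lower and 4 not called. Erbb2, the kinase partner of ERBB3, fell by 0.37 ± 0.08 on the log2 scale (SE, edgeR adjusted p = 0.00269), while Erbb3 rose. Erbb4, a neuregulin receptor at very low level (0.0883 FPKM in aged and 0.0243 in young libraries), rose by 1.71 ± 0.49 (SE, edgeR adjusted p = 0.0102). Among the ligands, Nrg2 rose by 1.57 ± 0.25 (SE, edgeR adjusted p = 0.000219), and Nrg1, Nrg3 and Nrg4 had too few counts to be tested. Lama4, a laminin chain of nerve and vessel basement membranes, fell by 0.46 ± 0.08 (SE, edgeR adjusted p = 0.000329), and Egfr by 0.42 ± 0.12 (SE, edgeR adjusted p = 0.0104). Without TMM factors, Erbb2 stood at −0.14 (adjusted p = 0.154) and Egfr at −0.19 (adjusted p = 0.171), and neither was called. With the blood score as a covariate, none of these 5 was called, with Erbb2 at −0.25 (adjusted p = 0.360), Erbb4 at 1.77 (adjusted p = 0.262), Nrg2 at 1.296 (adjusted p = 0.133), Lama4 at −0.24 (adjusted p = 0.344) and Egfr at −0.42 (adjusted p = 0.296). The muscle score instead left Erbb2 (−0.41), Nrg2 (1.73) and Lama4 (−0.47) called (edgeR adjusted p = 0.0377, 0.00460 and 0.0118). Erbb4 (0.86) and Egfr (−0.27) were not called with it (edgeR adjusted p = 0.341 and 0.295).

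Of 20 genes of non-myelinating and repair Schwann cells, 16 were tested, 5 were higher, 2 lower and 9 not called. Gfap, an intermediate filament of non-myelinating Schwann cells and astrocytes, rose by 2.74 ± 0.46 (SE, edgeR adjusted p = 0.000303). Without aged replicate 1, its highest library at 138 counts, Gfap rose by 2.53 (edgeR adjusted p = 0.000694). Scn7a, a sodium channel of non-myelinating Schwann cells, rose by 1.63 ± 0.25 (SE, edgeR adjusted p = 0.000153) and L1cam, an adhesion molecule of theirs and of axons, by 1.18 ± 0.14 (SE, edgeR adjusted p = 2.08e-05). Cdh2, an adhesion molecule shared with mesenchyme, fell by 1.83 ± 0.14 (SE, edgeR adjusted p = 4.99e-07) and Dhh, a hedgehog ligand of Schwann cells, by 1.02 ± 0.25 (SE, edgeR adjusted p = 0.00456). The defining markers Ngfr and Cdh19 were not called, with log2 fold changes of 0.28 each (adjusted p = 0.497 and 0.528). With the blood score as a covariate, Gfap stood at 0.015 (adjusted p = 0.991), Scn7a at 1.68 (adjusted p = 0.0668), L1cam at 0.69 (adjusted p = 0.133) and Dhh at −0.18 (adjusted p = 0.857), and none of these 4 was called. The muscle score instead left all 4 called, with Gfap at 3.85, Scn7a at 1.48, L1cam at 1.31 and Dhh at −1.22 (edgeR adjusted p at most 0.0354).

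Relatives of S100b, Pmp22 and Ncam1 are given by family. Of 10 genes of the S100 family and its receptor Ager, all tested, 2 were higher, 2 lower and 6 not called. The risers, S100a9 at 1.50 ± 0.38 and S100a8 at 1.42 ± 0.37 (SE, edgeR adjusted p = 0.00516 and 0.00637), are neutrophil proteins and also stand in the neutrophil list. The blood score is computed in part from these 2 genes, so a fit with it as a covariate cannot test them. In that fit they stood at −1.07 and −0.76 (edgeR adjusted p = 0.218 and 0.464), and neither was called. S100a10 fell by 0.65 ± 0.19 and S100a16 by 0.53 ± 0.12 (SE, edgeR adjusted p = 0.0144 and 0.00294), and S100a10 was not called with library sizes alone (−0.42, adjusted p = 0.0766). Of 6 PMP22 relatives, 5 were tested and 1 was called: Tmem47, a junction protein, fell by 0.85 ± 0.08 (SE, edgeR adjusted p = 2.14e-06). Of 8 genes of the NCAM family and of polysialylation, 6 were tested and 1 was called: St8sia2, which adds polysialic acid to NCAM1, fell by 0.98 ± 0.17 (SE, edgeR adjusted p = 0.000419). These counts depend on aged replicate 1. Without it, Nrcam (−1.14, edgeR adjusted p = 5.27e-05) and Fgfr1 (0.23, adjusted p = 0.0367) of this list were called too. In the S100 family, S100a1 (0.35, edgeR adjusted p = 0.00959) and S100a6 (0.57, adjusted p = 0.0308) were then called as well.

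**Figure D4:**
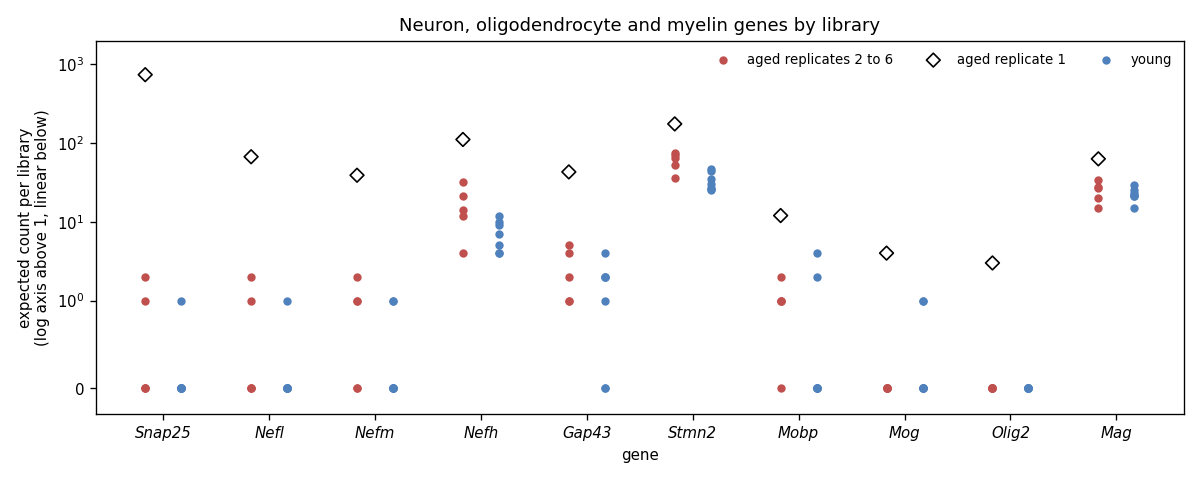
Expected counts per library of 10 neuron, oligodendrocyte and myelin genes, on an axis that is logarithmic above 1 and linear below; the open diamond is aged replicate 1, red points are the other 5 aged libraries and blue points the 7 young ones. Aged replicate 1 stands above all other libraries in each of the 10 genes, from Snap25 (738 counts) to Olig2 (3 counts).

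Aged replicate 1 carried transcripts of neurons and oligodendrocytes that the other libraries nearly lacked. It had 67 counts of Nefl and 39 of Nefm, the light and medium neurofilaments, against 0 to 2 counts of each in the other 12 libraries. It had 111 counts of Nefh, the heavy neurofilament, against 4 to 32 in the other libraries, and 43 of Gap43, a growth cone protein, against 0 to 5. The oligodendrocyte genes Mobp and Mog, at 12 and 4 counts, had at most 4 and 1 in any other library, and Opalin was at 0 in all 13. It was the highest library for Mag (63 counts) too, against 15 to 34 counts in the others. The summed level of the 8 oligodendrocyte genes ran from 0.09 to 1.03 FPKM (median 0.135) in aged and from 0.10 to 0.21 FPKM (median 0.13) in young libraries, and none of the 8 had enough counts to be tested. The origin of these transcripts was not tested.

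Of 16 axon and neuron genes, 6 were tested, 3 were higher and 3 not called. Nefh rose by 1.93 ± 0.61 (SE, edgeR adjusted p = 0.0189), a call lost without aged replicate 1 (1.04, adjusted p = 0.0655). Tac1, the substance P precursor of sensory neurons, rose by 1.47 ± 0.41 (SE, edgeR adjusted p = 0.00965), and Stmn2, an axonal tubulin regulator, by 1.04 ± 0.30 (SE, edgeR adjusted p = 0.0117), or 0.68 without aged replicate 1 (adjusted p = 0.0251). Tubb3, the neuronal tubulin, stood at 0.00 ± 0.22 on the log2 scale (SE, edgeR adjusted p = 0.989). Scn10a, which marks pain-sensing neurons, was at 0 in all 13 libraries. With the blood score as a covariate, none of Nefh, Tac1 and Stmn2 was called, with adjusted p of 0.982, 0.452 and 0.526. The muscle score instead left Nefh (2.85, edgeR adjusted p = 0.0166) and Stmn2 (1.31, adjusted p = 0.0377) called. Tac1 was not called with it (1.41, edgeR adjusted p = 0.132).

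Markers of other tissues moved with age beside the 7 genes. Of 18 skeletal muscle genes, 16 were higher and none lower, with a summed level of 4482 to 15653 FPKM (median 10054) in aged and 593 to 4780 FPKM (median 1359) in young libraries. All 14 erythroid genes were higher, with a summed level of 270 to 1227 FPKM (median 909) in aged and 20.9 to 146 FPKM (median 40.0) in young libraries. Of 13 neutrophil genes, 11 were higher, and of 6 tested adipocyte genes, 5, with a summed adipocyte level of 100 to 207 FPKM (median 149) in aged and 38.0 to 82.0 FPKM (median 58.6) in young libraries. Of 10 endothelial genes, 1 was higher and 4 lower, of 10 fibroblast genes 1 was higher and 3 lower, and of 8 smooth muscle and pericyte genes 1 was lower. Each of 6 tested mast cell genes was higher, as were 2 of 6 tested lymphocyte genes and 2 of 4 tested genes of satellite cells and the neuromuscular junction, and the 1 tested epithelial gene, Epcam, was not called. Of 4 tested genes of the perineurium, the sheath of nerve bundles, 2 were higher: Moxd1 by 2.28 ± 0.41 and Slc2a1 by 0.51 ± 0.15 (SE, edgeR adjusted p = 0.000529 and 0.0150). Of 3 tested melanocyte genes, which mark another Sox10-dependent lineage, only Kit was called, higher by 0.80 ± 0.18 (SE, edgeR adjusted p = 0.00227). Mlana had 0 to 1 count in an aged library and 0 in each young one, and Tyr at most 5.99 and 2 counts. Which cells gave the Kit counts was not tested. The part of these tissues in the rises of Mbp, S100b, Erbb3 and Sox10 was not tested. The covariate fits cannot assign it, because the blood score did not overlap between the ages and the muscle score overlapped only in part.

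The leading genes of these lists give the size of the shifts. On the log2 scale, with adjusted p from edgeR, the largest rises were Myh1 at 2.49 for muscle (adjusted p = 0.00293), Slc4a1 at 3.87 for erythroid cells (adjusted p = 7.74e-05), Fcnb at 2.17 for neutrophils (adjusted p = 0.000452), Cma1 at 2.66 for mast cells (adjusted p = 0.000174), Plin4 at 2.15 for adipocytes (adjusted p = 0.000924), Vwf at 2.16 for endothelium (adjusted p = 8.95e-07) and Pi16 at 2.18 for fibroblasts (adjusted p = 0.000173). The smaller lists were led by Nkg7 at 1.71 for lymphocytes (adjusted p = 0.000360) and Dok7 at 1.22 for the neuromuscular junction (adjusted p = 0.00306). The largest falls were Cnmd at −5.40 for chondrocytes (adjusted p = 2.55e-06), Col1a1 at −1.92 for fibroblasts (adjusted p = 4.66e-08), Emcn at −0.73 for endothelium (adjusted p = 0.000600) and Mcam at −0.48 for smooth muscle and pericytes (adjusted p = 0.00920). Among the most abundant genes of the lists, Acta1 stood at 1.90 for muscle, Ahsp at 3.68 for erythroid cells, Hdc at 1.27 for mast cells, Fabp4 at 1.48 for adipocytes, Col1a2 at −1.81 for fibroblasts and Col2a1 at −1.89 for chondrocytes, all called. Egfl7 of endothelium, Acta2 of smooth muscle, Cd79a of lymphocytes, Chodl of the neuromuscular junction and Mitf of melanocytes were not called, and Ucma, at 1.18, was the largest rise among chondrocyte genes (adjusted p = 0.00288).

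**Figure D5:**
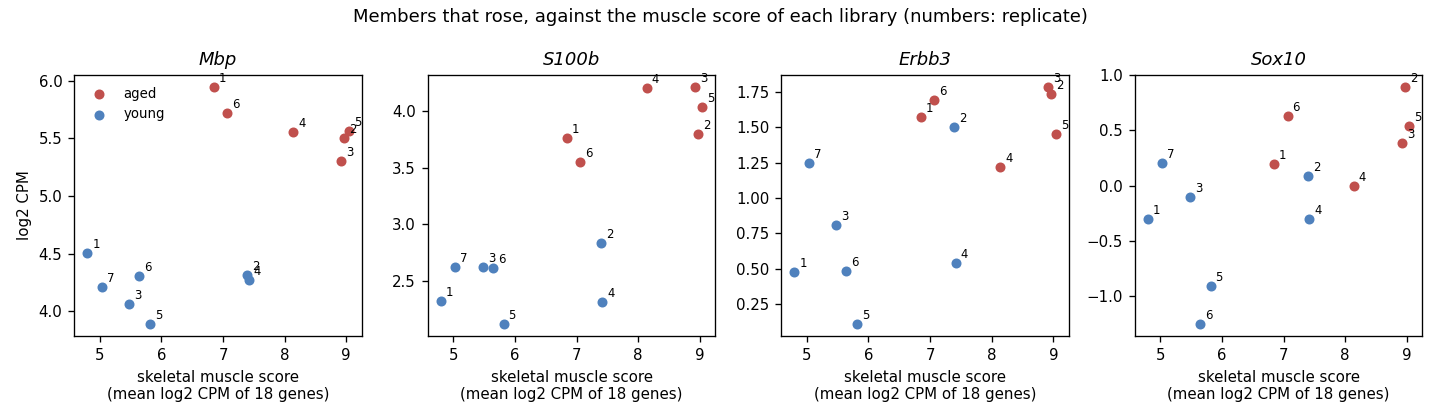
Log2 CPM of the 4 genes that rose against the skeletal muscle score of the same library (mean log2 CPM of 18 genes), with aged libraries in red, young in blue and the replicate number beside each point. The muscle scores run from 6.85 to 9.04 in the aged and from 4.80 to 7.41 in the young libraries, and among the aged points Mbp runs against the score (r = −0.86).

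The muscle score ran from 6.85 to 9.04 in the aged and from 4.80 to 7.41 in the young libraries. The 2 aged libraries within the young range were replicates 1 and 6, at 6.85 and 7.06. They were also the highest aged libraries for Mbp, at 61.7 and 52.7 CPM, and among the aged libraries Mbp ran against the muscle score. S100b ran the other way, with an r of 0.63 with that score in the aged libraries. The score of erythroid and neutrophil genes did not overlap between the ages, at 4.86 to 6.87 in aged and 2.72 to 4.40 in young libraries.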

How the data were processed

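Messenger RNA of 13 libraries was sequenced as stranded paired reads on a DNBSEQ instrument, per the labels' protocols. The submitters' processing notes list RSEM 1.3.1, HISAT2 2.1.0, DESeq2 1.4.5 and Bowtie2 2.3.4.3 with the build GRCm39 and give them no roles. The annotation was not given in the sources. The authors deposited expected counts, FPKM and TPM per gene and library, per the file headers. Of the deposited count values, 5.3% were not whole, and they were rounded.

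Genes were filtered with filterByExpr (minimum count 10, minimum total 15), scaled by TMM and tested, aged against young, in edgeR 4.0.16 (R 4.3.3) with glmQLFit (robust) and glmQLFTest, with Benjamini-Hochberg adjustment over 14067 genes and a threshold of 0.05. CPM are TMM-normalised, and log2 CPM used a prior count of 2. The SE is the size of the log2 fold change over the root of its F statistic. Ratios used FPKM. A marker score is the mean log2 CPM of its list. The 7 genes and the 25 gene lists were chosen with earlier results of these data known. Named genes are the 7, the 2 largest called rises and falls of each Schwann cell or neuron list with further members as given, and the largest changes of the other lists; some genes the rule took are counted in their lists but not reported here by name. Libraries of 1 age all differed by more than sampling noise (smallest chi-square per degree of freedom 9.87). The fit was tested on simulated counts. Alternatives included DESeq2 1.42.0, limma 3.58.1, other filters and scalings, score covariates, a replicate block and each library left out. Counting error was small beside the spread between libraries for Pmp22 and Ncam1, but not for all of the 7 genes. It was wide near 1 CPM. The aged Erbb3 counts ran from 40 to 61, and the exact Poisson interval of 59 counts runs from 44.9 to 76.1. The young Prx counts ran from 124 to 166, and the interval of 142 counts runs from 120 to 167. Promoters came from RefSeq (GRCm38.p6). Figures used Python 3.11.15 and matplotlib 3.10.9.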

Additional observations from a re-analysis of the deposited data

How the results depend on the processing

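Mbp and S100b were called higher under each of the 13 alternatives to the fit as well as without each library, and Erbb3 and Sox10 in all but those named here; Sox10 was not tested under the stricter filter (minimum count 30). With library sizes alone, 7034 genes were higher and 1253 lower, 6 genes of the Schwann cell, neuregulin and axon lists were lower, and the log2 fold changes were 0.14 for Pmp22, 0.22 for Prx and 0.26 for Ncam1, the last now called. With limma on log2(FPKM + 1) these were 6250, 1361, 5, 0.096 for Pmp22 and 0.14 for Prx. On log2(FPKM + 0.1) they were 6234, 1366, 5, 0.097 for Pmp22, 0.20 for Prx and 0.26 for Ncam1, again called. The medians of all genes were 0.24, 0.17 and 0.21 under these 3 scalings, whose construction leaves out the TMM factors (1.04 to 1.16 in aged and 0.90 to 0.96 in young libraries). With the muscle score as a covariate, 1953 genes were higher and 1718 lower, 2 of the 7 genes and 14 list genes were higher, Sox10 was at 0.67 and Erbb3 at 0.64, both no longer called, and Ncam1 at −0.22. With the erythroid and neutrophil score, 1172 genes were higher and 918 lower, 8 list genes were higher and 3 lower, Sox10 was at 1.66 and no longer called, Pmp22 at 0.23 and Prx at 0.35; the cause of these changes was not tested. Leaving out each library gave 3149 to 3413 genes higher and 2739 to 3100 lower, 4 of the 7 genes higher each time, Prx from −0.085 to 0.049, Ncam1 from −0.073 to 0.076, and 12 to 15 of the 21 ratios past the threshold. The log2 ratio of Sox10 to Erbb3 ran from −0.12 to 0.080 and that of Prx to Ncam1 from −0.13 to 0.055. With the replicate block, 3068 genes were higher and 2703 lower and the same number of the 7 genes, 4, was higher (Sox10 0.98, Erbb3 0.96). Same-numbered libraries deviated together in 5 of 6 pairs, with r from −0.12 to 0.26, and 2 of 6 matched their own number best. These values carry no test, and the labels do not say whether the numbers pair the libraries. An alternative chosen after seeing the data, replicates 1 to 6 without the block, put Prx at 0.0074, and leaving aged replicate 1 out of the r values was chosen then too. Depth limits Sox10 most, with 5 to 32 counts a library, where counting error alone is wide.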
